A study of Mus musculus with 8 samples.

Results

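Inhibition in the retina runs largely on GABA, and 6 genes that make, move and sense it were followed here: Gad1, Gad2, Slc32a1, Slc6a11, Gabrr1 and Gabrr2. They were chosen by name for their roles, and all 6 were found among the 17500 genes of the count table, in whole retinas of 4 control and 4 Rbfox2-/- mice. All mice were C57BL/6J, 6 months of age, and the labels give the same tamoxifen note, with 4 months, for all 8. The Rbfox2-/- animals, labelled Rbfox2 KD and named M893, M901, M902 and M909, carried Rbfox2 fl/fl alleles with a tamoxifen-activated Cre recombinase that is not limited to 1 retinal cell type. The controls, M833, M894, M896 and M898, were described in the methods of the study as heterozygous Rbfox2 fl/+ animals of the same age. Whether the controls carried Cre or received tamoxifen is not clear from the sources used here, so effects of Cre or tamoxifen and of Rbfox2 loss cannot be told apart here. Rbfox2 is an RNA-binding regulator of splicing that the study stained in ganglion cells, horizontal cells and GABAergic amacrine cells, and the comparison asks whether the RNA of GABA genes differed after its loss.

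GABA is formed from glutamate by the glutamate decarboxylases GAD67 (Gad1) and GAD65 (Gad2), and is loaded into synaptic vesicles by VGAT (Slc32a1), which also loads glycine. It is cleared from outside the cell by plasma membrane transporters such as GAT3 (Slc6a11), which in the retina are carried by amacrine cells and Müller glia. Most amacrine cells of the inner retina use either GABA or glycine. The rho subunits (Gabrr1, Gabrr2) form GABA-gated chloride channels that are insensitive to bicuculline, desensitize slowly, and are best known from the axon terminals of rod bipolar cells, where amacrine cells inhibit them.

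Rbfox proteins bind UGCAUG in RNA, and its occurrences in the spliced transcripts of the 6 genes are printed because they show where the letters read by the deleted factor lie. One GENCODE transcript per gene (GRCm38), matched by the RefSeq identifier of the count table, was searched on the sense strand for TGCATG. It occurred 5 times, in Gad1, Gad2, Slc32a1 and Gabrr2, and was not in the transcripts of Slc6a11 or Gabrr1. Capitals mark the element in 30 bases of transcript, 5′ to 3′, all from the plus strand.
Gad1, coding sequence, exon 11, chr2:70589867-70591112 (the 30 bases cross a splice junction): acaacctttggcTGCATGtggatgctgcct
Gad2, coding sequence, exon 13, chr2:22681301-22681330: gctgcaaccagaTGCATGcttcctacctct
Gad2, 3′ UTR, exon 16, chr2:22692695-22692724: aaaggaggtacaTGCATGcccagtacttta
Slc32a1, coding sequence, exon 2, chr2:158614426-158614455: agcgaattccacTGCATGatgaactggaca
Gabrr2, coding sequence, exon 9, chr4:33085737-33095297 (the 30 bases cross a splice junction): gagaagcttccaTGCATGtgtggaatgctt

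The element is common: 53.5% of 14012 matched transcripts of tested genes held at least 1 copy. Among transcripts within 10% of the same length, the share was 57.7% for Gad1, 78.0% for Gad2, 50.0% for Slc32a1 and 36.8% for Gabrr2, and 67.3% and 44.6% for Slc6a11 and Gabrr1, which had no copy. The shorter GCATG, which every TGCATG contains, was found 2 times in Slc6a11 and 4 or 5 times in each of the other 5 transcripts. Introns were not searched. The letters are a description of the transcripts and no evidence of binding.

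In the genome (GRCm38), the 3 genes of GABA synthesis and vesicle loading are all on chromosome 2, at 22622205 to 22693874 (Gad2), 70553072 to 70602014 (Gad1) and 158610767 to 158615748 (Slc32a1). Slc6a11 lies on chromosome 6 at 114131241 to 114249952. Gabrr2 (33062999 to 33095865) and Gabrr1 (33132521 to 33163588) are neighbors on chromosome 4, on the same strand, with 36655 bp between them.

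The libraries held 160630226 to 211283591 counts each. Rbfox2 itself fell in all 4 Rbfox2-/- retinas, from 150 ± 5.39 to 56.5 ± 3.15 CPM (counts scaled to library size; mean ± SD, n = 4 each), a log2 fold change of -1.41 ± 0.046 (SE; edgeR FDR = 5.51e-07). CPM here also takes account of library composition. The libraries M901 and M902 stood apart from the other 6 on the first principal component (40.5% of the variance), and held 1440 and 1739 CPM of Xist, the RNA of the inactive X chromosome, against 1.71 to 2.22 in the other 6. Both are Rbfox2-/- libraries. By this RNA, M901 and M902 read as female and the other 6, with every control among them, as male. Sex is thus partly confounded with genotype, and its part in the values was not tested. M909, also Rbfox2-/-, stood alone on the second component (19.2% of the variance; 40.2 against -15.0 to 0.22 in the other 7), and its 4 markers of surface epithelium summed to 67.2 CPM against 0.972 to 6.73 CPM in the other 7. Values without M901 and M902, or without M909, are given for calls among the GABA genes and for Calb1 where these are lost without them. For other single markers they are not given, so whether those calls hold is open. Among 16797 genes tested, 11 (0.0655%) had an FDR under 0.05, 2233 (13.3%) had an unadjusted p under 0.05, and 1181 (7.03%) had groups of mice that did not overlap in CPM.

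None of the 6 genes passed the FDR threshold in edgeR, against 0.0655% of all genes. None did in DESeq2 or limma-voom, which called 465 and 11 of all genes. With an unadjusted p under 0.05 there was 1 of 6, Gabrr2, against 13.3% of all genes (6.42% higher and 6.87% lower). It was also the only one of the 6 with groups that did not overlap, against 7.03% of all genes (3.64% higher and 3.39% lower). The log2 fold changes ran from -0.06 for Gad2 to 0.15 for Gabrr2, 4 positive and 2 negative, with a median of 0.03 beside 0.0016 over all genes. Their 95% intervals all lay within a change of 25% in either direction, as did those of 11198 of 16797 genes. In bulk retina, fewer cells of a type and less RNA per cell cannot be told apart.

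**Figure D1:**
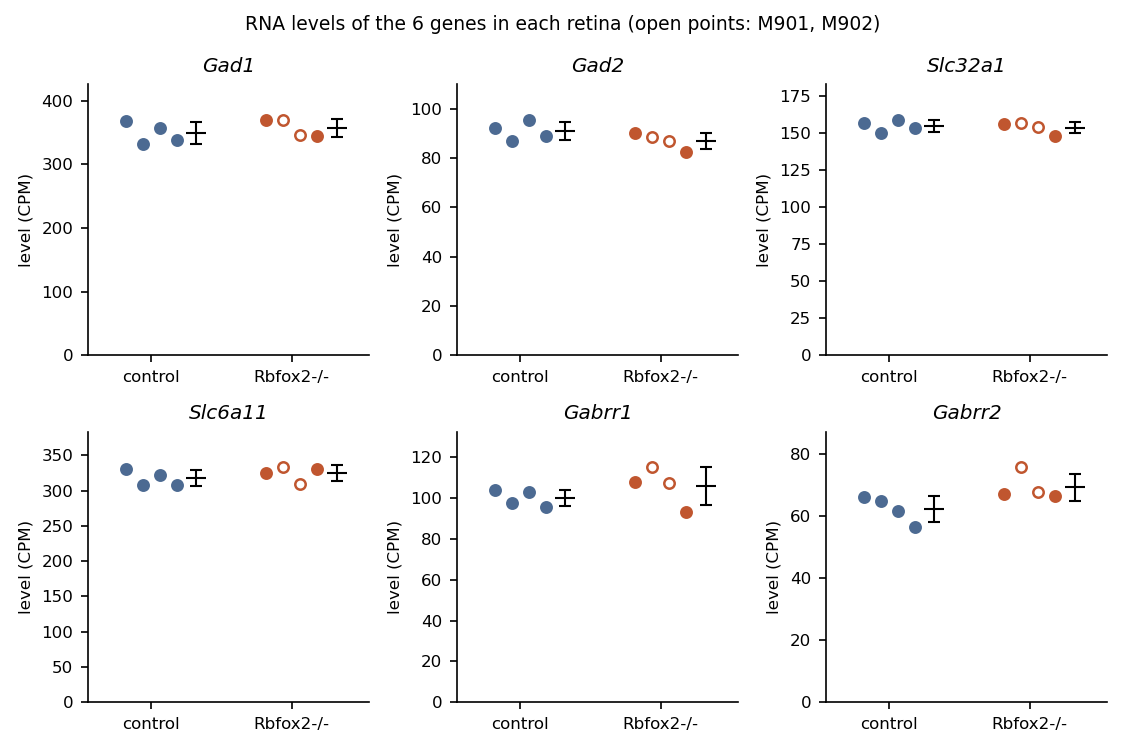
RNA level (CPM) of the 6 genes in each control (blue) and Rbfox2-/- (orange) retina, with bars for mean ± SD (n = 4 per group); open points are M901 and M902. The groups overlap for 5 genes, and for Gabrr2 the lowest Rbfox2-/- retina (66.4 CPM) lies just above the highest control (66.2 CPM).

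Gad1, which encodes the decarboxylase that makes most GABA in many neurons, was at 369, 332, 358 and 338 CPM in M833, M894, M896 and M898, the control retinas, whose values are given in this order for every gene. In M893, M901, M902 and M909, the Rbfox2-/- retinas, it was at 370, 369, 346 and 345 CPM. The ranges overlap over most of their length, and 2 Rbfox2-/- retinas were above every control by a narrow margin. Its log2 fold change was 0.03 ± 0.045 (SE), a difference of 2.43% with a 95% interval of -4.50 to 9.86% (edgeR FDR = 0.784; exact permutation p = 0.429).

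Gad2, the decarboxylase tied to synaptic vesicles, was at 92.1, 87.0, 95.6 and 89.0 CPM in the controls and at 90.1, 88.4, 86.9 and 82.5 CPM in the Rbfox2-/- retinas. M902 and M909 were below every control and no Rbfox2-/- retina was above the highest one. This gave a log2 fold change of -0.06 ± 0.040 (SE), with a 95% interval of -10.1 to 1.85% for the change (edgeR FDR = 0.530; exact permutation p = 0.171).

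Slc32a1 was the least variable of the 6, with a coefficient of variation of 2.53% in both groups. The controls were at 157, 150, 159 and 154 CPM, and the Rbfox2-/- retinas at 156, 157, 154 and 148 CPM. Only M909 left the control range, at its lower end. The log2 fold change was -0.01 ± 0.032 (SE), with a 95% interval of -5.44 to 4.33% (edgeR FDR = 0.926; exact permutation p = 0.743).

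Slc6a11, the GAT3 transporter, was at 331, 308, 322 and 307 CPM in the controls and at 325, 333, 309 and 331 CPM in the Rbfox2-/- retinas. M901 and M909 were narrowly above the highest control, and M902 was among the lowest of the 8. Its log2 fold change was 0.03 ± 0.040 (SE), with a 95% interval of -3.75 to 8.83% (edgeR FDR = 0.754; exact permutation p = 0.257).

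Gabrr1, the rho-1 subunit, was at 104, 97.5, 103 and 95.5 CPM in the controls. In the Rbfox2-/- retinas it was at 108, 115, 107 and 93.1 CPM. M893, M901 and M902 were above every control and M909 was below every control, so the spread was wider in the Rbfox2-/- group (SD 9.17 CPM) than in the controls (SD 4.04 CPM). For Gabrr1 the log2 fold change was 0.08 ± 0.060 (SE), with a 95% interval of -3.49 to 16.1% (edgeR FDR = 0.583; exact permutation p = 0.257). It was 0.14 without M909 (unadjusted p under 0.05, edgeR FDR = 0.159) and 0.0045 without M901 and M902 (edgeR FDR = 0.998). The part in these values of what sets M901, M902 and M909 apart was not tested.

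Gabrr2, the rho-2 subunit, had the largest difference of the 6. The controls were at 66.2, 64.9, 61.6 and 56.6 CPM and the Rbfox2-/- retinas at 67.1, 75.8, 67.7 and 66.4 CPM. Every Rbfox2-/- retina was above every control, but 3 of them exceeded the highest control only narrowly, and M901 stood alone at the top. Its log2 fold change was 0.15 ± 0.059 (SE), a difference of 11.1% with a 95% interval of 1.37 to 21.8% (edgeR FDR = 0.326). The exact permutation p was 0.0286, which is the smallest that the 70 groupings of 4 against 4 mice can give. Without M901 the log2 fold change was 0.11 (edgeR FDR = 0.582), and without M901 and M902 it was 0.10 (edgeR FDR = 0.914), neither with an unadjusted p under 0.05.

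Per length of transcript (FPKM), the order of the 6 genes was the same in 8 of 8 libraries. Gad1 was highest at 109 ± 4.23 FPKM (SD, n = 8), followed by Slc6a11 at 78.9 ± 2.31, Slc32a1 at 55.1 ± 1.42, Gabrr1 at 45.7 ± 2.99, Gabrr2 at 36.1 ± 2.70 and Gad2 at 15.8 ± 0.757 FPKM. Only Gabrr1 and Gabrr2 are neighbors whose ranges overlap, with 41.1 to 50.5 FPKM for Gabrr1 and 31.6 to 41.2 FPKM for Gabrr2, although Gabrr1 was above Gabrr2 within each library. All 6 were well expressed in retina: 97.7% of the genes in the table had a lower mean FPKM than Gad1, and 72.3% had a lower one than Gad2.

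Ratios of counts within a library do not depend on scaling between libraries, and 5 were tested, of which 4 are given. The ratio of Gad1 to Gad2 was 6.97, 6.64, 6.51 and 6.62 on the FPKM scale in the controls. It was 7.15, 7.27, 6.94 and 7.27 in the Rbfox2-/- retinas. M893, M901 and M909 were above every control and M902 was just below the highest control, M833. The mean log2 ratio was higher by 0.10 in Rbfox2-/- retinas, which did not pass the test (exact two-sided permutation p = 0.0571, adjusted over the 5 ratios 0.214), and it was higher by 0.11 without M901 and M902.

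The other ratios given did not pass either. Both decarboxylases together relative to Slc32a1 differed by 0.02 on the log2 scale (exact permutation p = 0.314). Gabrr1 relative to Gabrr2 differed by -0.07 (exact permutation p = 0.314). Gabrr1 relative to Prkca, the kinase that marks rod bipolar cells, differed by 0.13 (exact permutation p = 0.229): M893, M901 and M902 were above every control, at log2 ratios of -2.04, -1.97 and -2.06, and M909 was below every control at -2.43, while the controls ran from -2.30 to -2.19. The difference was 0.23 without M909 and 0.02 without M901 and M902.

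**Figure D2:**
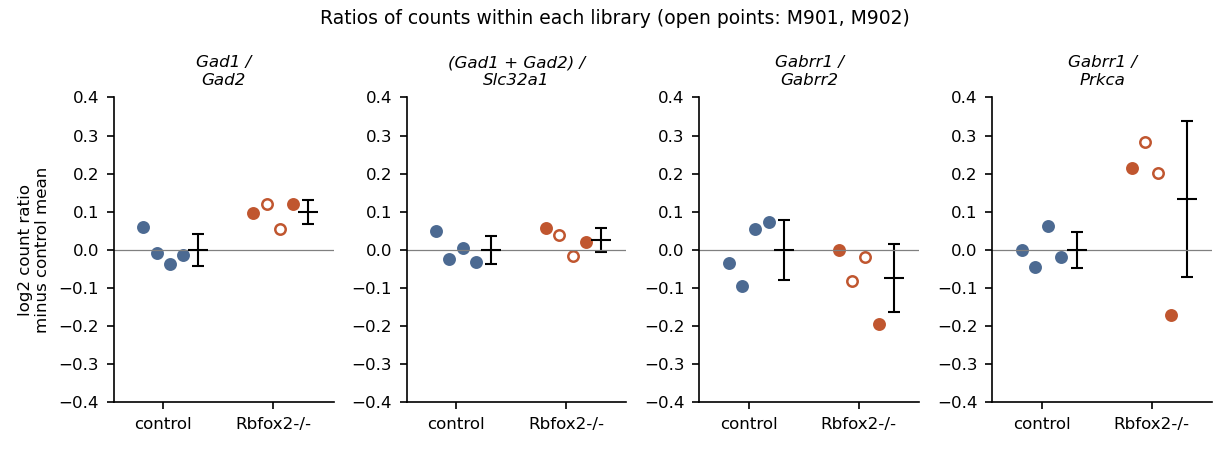
Log2 ratio of counts of 2 genes (for the second panel, of Gad1 plus Gad2 over Slc32a1) in each retina, as the difference from the control mean, with bars for mean ± SD (n = 4 per group); open points are M901 and M902. For Gad1 over Gad2, 3 of 4 Rbfox2-/- retinas lie above every control; for Gabrr1 over Prkca, M909 lies below every control and the other 3 Rbfox2-/- retinas above.

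The 6 genes belong to a wider list of 65 genes of GABA metabolism, transport, receptors, receptor anchoring and chloride balance, of which 63 were tested and 2 (Gabra6 and Gabrp) were not in the table. Of the 63, 29 had positive and 34 negative log2 fold changes, with a median of -0.0098 beside 0.0016 over all genes. No gene of the list passed the FDR threshold in edgeR, whereas DESeq2 called 1 of the 63, Glul (FDR = 0.0107). Over all 16797 genes DESeq2 called 465. At an unadjusted p under 0.05 there were 2 higher, Gabrr2 and Slc38a3, and 2 lower, Glul and Kcnj3, in total 4 of 63 against 13.3% of all genes. Groups of mice did not overlap for Gabrr2 and Clptm1 (higher) and for Glul and Gphn (lower), 4 of 63 against 7.03%.

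**Figure D3:**
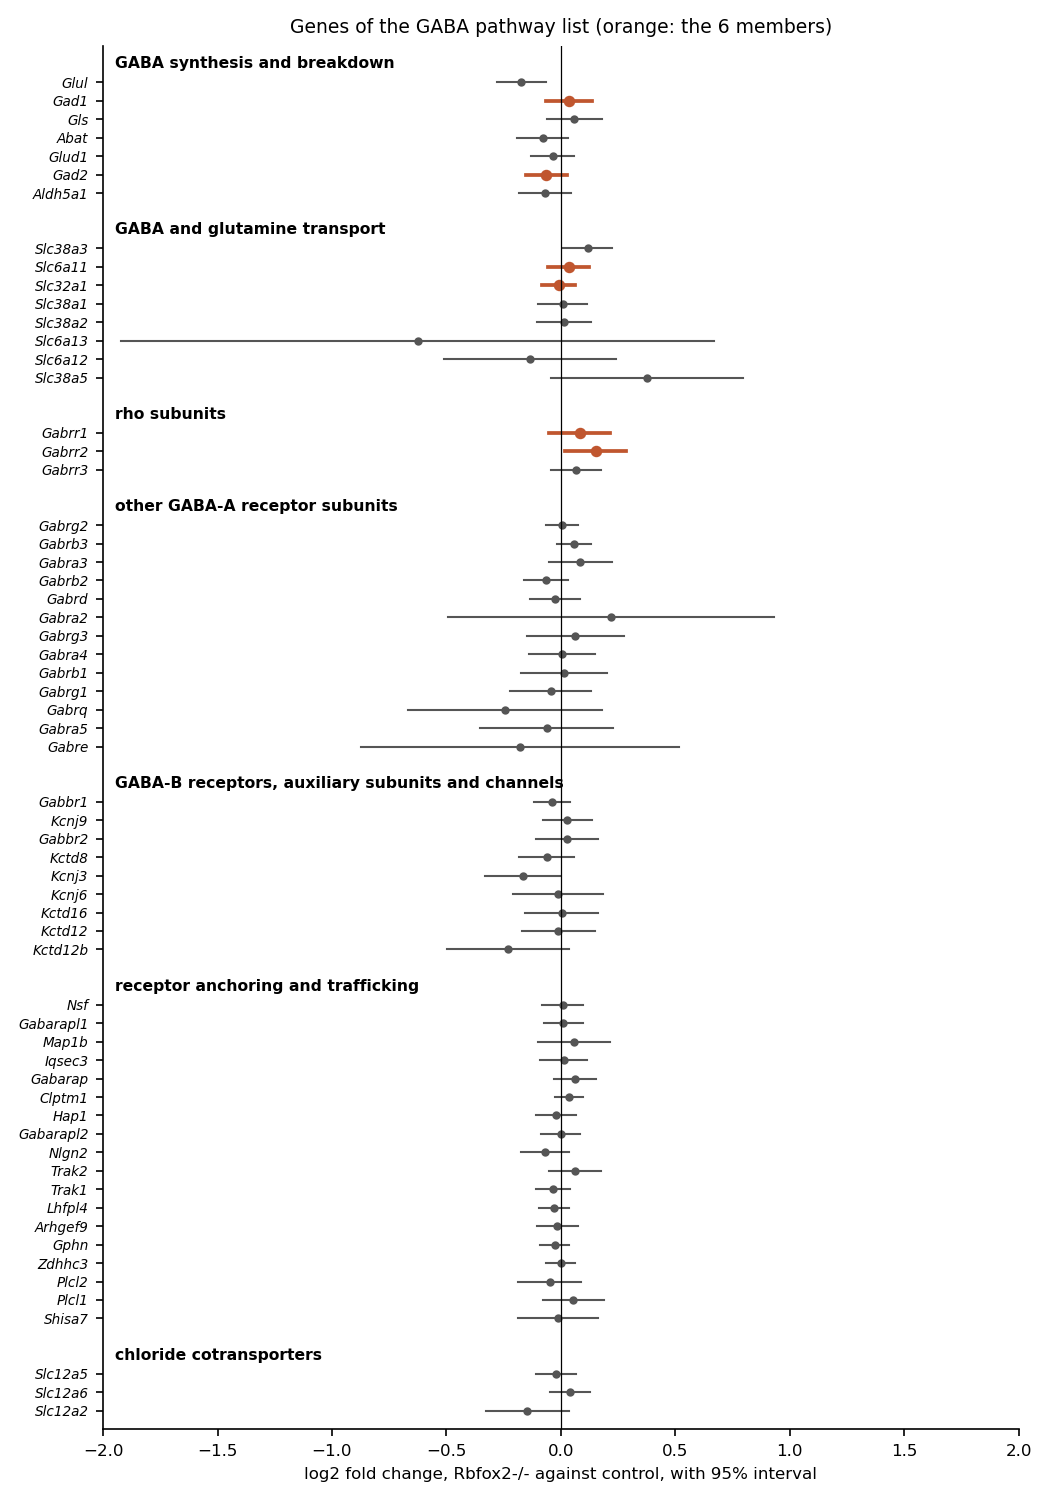
Log2 fold change (Rbfox2-/- against control) with its 95% interval for genes of the GABA list, grouped by role and ordered by FPKM within each group; the 6 members are in orange. The widest intervals belong to Slc6a13 (-1.92 to 0.67), Gabre (-0.87 to 0.52) and Gabra2 (-0.49 to 0.93).

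Among 7 genes of GABA synthesis and breakdown, 5 had negative values. Glul, the glutamine synthetase of Müller glia that returns glutamate and GABA carbon to neurons as glutamine, was the most abundant of the list at 1138 FPKM. It was at 3214, 3245, 3513 and 3565 CPM in the controls and at 2946, 2973, 3003 and 3083 CPM in the Rbfox2-/- retinas, with no overlap. Glul thus had a log2 fold change of -0.17 ± 0.048 (SE; edgeR FDR = 0.221), and the unadjusted p stayed under 0.05 in 18 of 18 alternative settings. The 6 Müller glia markers had a median of -0.02, 3 positive and 3 negative. Of these 6, 1 (Dkk3) was lower with an unadjusted p under 0.05, against 6.87% of all genes. Aldh5a1, which oxidizes the product of GABA breakdown, was the least abundant of the 7 (10.8 FPKM; log2 fold change -0.07, edgeR FDR = 0.588).

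Of 9 transporters of GABA and glutamine, 5 had positive values. Slc38a3, a glutamine transporter of glia, was at 266 FPKM the most abundant of them. It was at 631, 667, 609 and 586 CPM in the controls and at 684, 688, 691 and 642 CPM in the Rbfox2-/- retinas, where only M909 was within the control range. For Slc38a3 the log2 fold change was 0.12 ± 0.048 (SE; edgeR FDR = 0.342), and it was 0.09 without M901 and M902 (edgeR FDR = 0.918), where its unadjusted p was above 0.05; that p was under 0.05 in 9 of 18 alternatives. Slc38a5 was the least abundant at 0.271 FPKM (log2 fold change 0.38, edgeR FDR = 0.418).

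All 3 rho subunits had positive values, with 0.07 ± 0.049 (SE) for Gabrr3 (edgeR FDR = 0.582). Gabrr3 was at 15.4, 14.1, 14.5 and 14.9 CPM in the controls and at 14.7, 15.6, 15.5 and 15.9 CPM in the Rbfox2-/- retinas, so that 3 of 4 Rbfox2-/- retinas were above every control. For rod bipolar cells, which are known to carry these receptors, the marker list had values of the other sign: 8 of 9 markers were negative with a median of -0.11. Lower with an unadjusted p under 0.05 were 4 of the 9, against 6.87% of all genes, among them Pcp2 (-0.18), Gng13 (-0.14) and Cabp5 (-0.14). None of the 9 passed the FDR threshold. Prkca, the rod bipolar marker used in the ratios, was at -0.05 (edgeR FDR = 0.667). Grm6, the glutamate receptor of ON bipolar cells, was at 0.19 (edgeR FDR = 0.426). Without M901 and M902 the counts were again 8 negative and 4 lower, and without M909 they were 8 and 6. The summed level of the 9 was 1690 to 1822 CPM in the controls and 1615 to 1701 CPM in the Rbfox2-/- retinas. Relative to the mean log2 level of these markers, Gabrr2 was at -0.10 to 0.04 in the controls, centered on the control mean, and at 0.17 to 0.35 in the Rbfox2-/- retinas. On the same scale Gabrr3, whose CPM ranges overlap, was at -0.08 to 0.06 and 0.11 to 0.20. Gabrr1 was at -0.05 to 0.07 and -0.01 to 0.27. The mean log2 level of the markers was itself apart, at -0.04 to 0.05 in the controls and -0.11 to -0.05 in the Rbfox2-/- retinas. A gene with no difference would therefore also come out apart on this scale, so a gap here is no result about the rho subunits. The share of all genes apart on this scale was not computed. These relative levels were computed after the marker values were seen and were not tested.

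The 14 tested subunits of the other GABA-A receptors had 7 positive and 7 negative values and a median of -0.01, none with an unadjusted p under 0.05. Gabre was the least abundant at 0.118 FPKM (log2 fold change -0.18, edgeR FDR = 0.846).

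**Figure D4:**
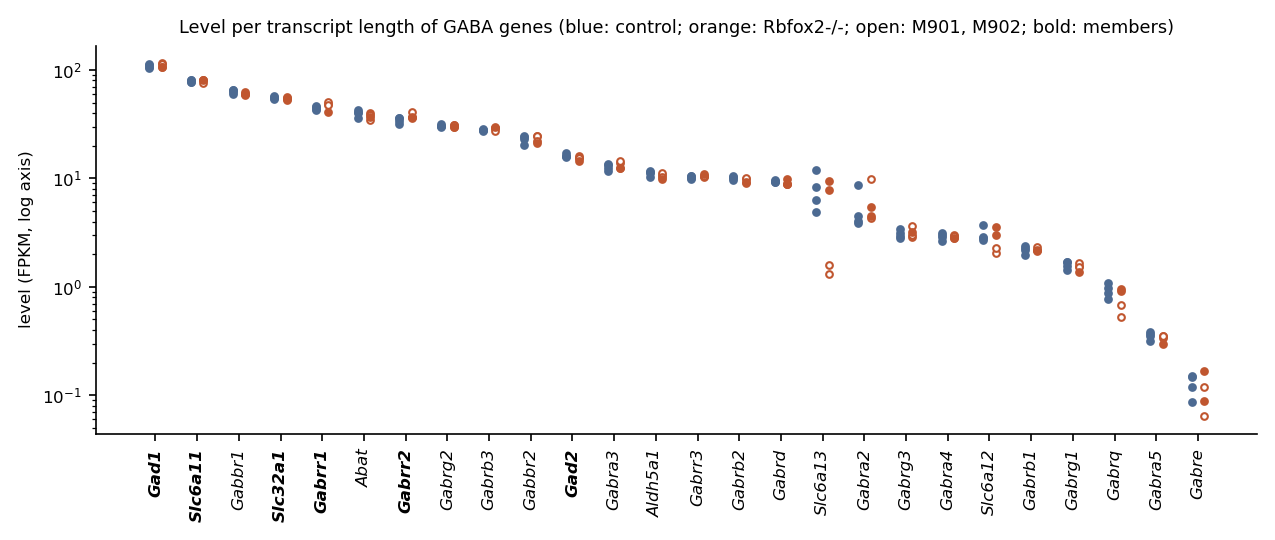
Level per length of transcript (FPKM, log axis) of GABA genes in each control (blue) and Rbfox2-/- (orange) retina, ordered by mean; open points are M901 and M902, and the 6 members are in bold. Gad1 (109 FPKM) is the highest gene plotted, and the rho subunits Gabrr1 (45.7 FPKM) and Gabrr2 (36.1 FPKM) are above every other GABA-A subunit plotted by mean level.

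Gabra2, the alpha-2 subunit, was high in 1 library of each group. It was at 20.6 CPM in the control M894 and at 23.9 CPM in the Rbfox2-/- retina M901, against 9.19 to 12.9 CPM in the other 6 libraries, a ratio of means of 2.09. Both libraries lay above the other 6 for 254 of 16797 tested genes, and 1 gene had a wider gap than Gabra2. The pair was picked because Gabra2 was high in it, so this rank is not a test. The other receptor subunits of the same cluster on chromosome 5, Gabrg1, Gabra4 and Gabrb1, did not share the high level. Their ratios were 1.04, 0.917 and 1.06. Without M894 and M901, a setting chosen after seeing the data, the log2 fold change of Gabra2 was 0.22 ± 0.102 (SE; edgeR FDR = 0.594), and it was 0.22 ± 0.319 with all 8. The cause of the high level in M894 and M901 was not tested.

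Slc6a13 (GAT2) and Slc6a12 (BGT1), neighbors on chromosome 6 that are best known from tissues outside neurons, were lowest in M901 and M902. Slc6a13 was at 2.86 and 3.43 CPM there and at 10.8 to 25.3 CPM in the other 6 libraries, and Slc6a12 was at 5.33 and 5.86 CPM against 6.88 to 9.38. The log2 fold change of Slc6a13, -0.63 ± 0.581 (SE; edgeR FDR = 0.677), turned to 0.14 without M901 and M902. As a mean, the 7 markers of the ciliary body and pigmented epithelium were also lowest in M901 and M902. Relative to the control mean, their mean log2 level was at -2.50 and -2.22 in M901 and M902, -1.20 to 1.41 in the controls and -0.84 and -0.18 in M909 and M893. Their summed level was 191 and 203 CPM in M901 and M902, 219 and 269 CPM in M909 and M893, and 224 to 596 CPM in the controls. Log2 fold changes of the single markers ran from -2.25 to -0.06. Best2, which defines ciliary epithelium in the list, was at 0.150 and 0.208 CPM in M901 and M902 and at 4.14 to 16.0 CPM in the other 6. The 4 fibroblast markers were also lowest in M901 and M902, at a mean log2 level of -0.50 and -0.55, against -0.34 to 0.48 in the controls and -0.14 and -0.22 in M893 and M909. Markers of other cells were lowest in M901 and M902 as well, such as microglia (-0.19 and -0.25) and Müller glia (-0.09 and -0.14). Rod markers were highest there (0.15 and 0.16). The part of any of these cells in the Slc6a13 and Slc6a12 values was not tested.

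**Figure D5:**
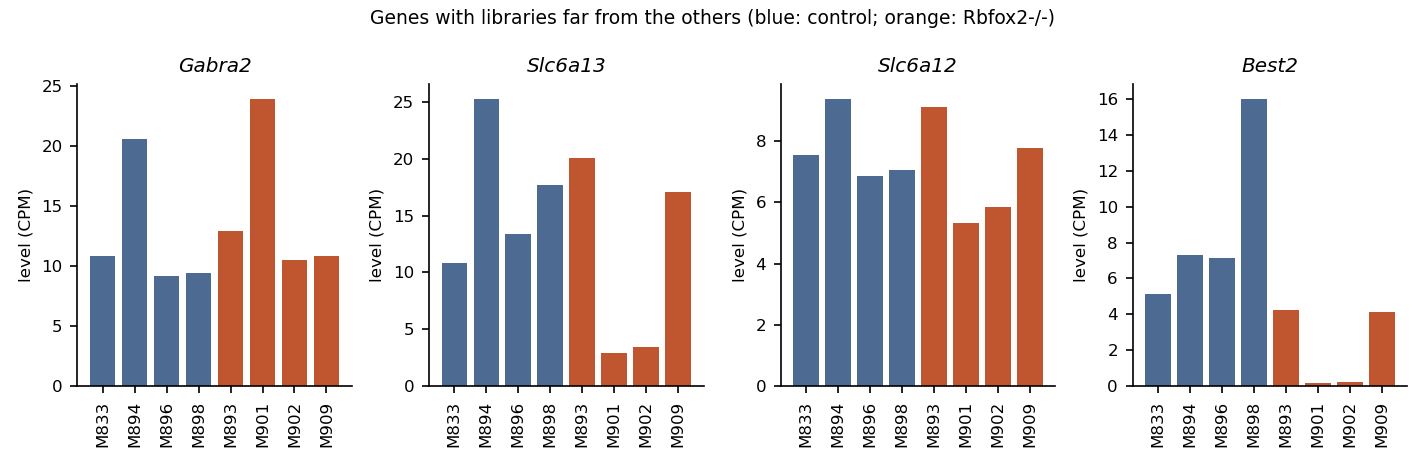
Level (CPM, axes from 0) of Gabra2, Slc6a13, Slc6a12 and the ciliary epithelium marker Best2 in each control (blue) and Rbfox2-/- (orange) retina. Gabra2 is high in M894 and M901, one of each group; Slc6a13 and Best2 are lowest in M901 and M902.

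Of 9 genes of GABA-B receptors, their auxiliary subunits and their potassium channels, 6 had negative values. Gabbr1 was the most abundant at 61.7 FPKM (log2 fold change -0.04, edgeR FDR = 0.671) and Kctd12b the least at 0.732 FPKM (log2 fold change -0.23, edgeR FDR = 0.436). Kcnj3, a G protein-gated potassium channel that GABA-B receptors open, was at 10.1 to 11.3 CPM in the controls and at 10.1, 10.4, 8.48 and 9.30 CPM in M893, M901, M902 and M909. The groups overlapped, and the log2 fold change was -0.17 ± 0.074 (SE; edgeR FDR = 0.371). Its unadjusted p was under 0.05 in 9 of 18 alternatives, and not without M901 and M902 (log2 fold change -0.15, edgeR FDR = 0.878).

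The 18 genes of receptor anchoring and trafficking were close to 0, from -0.07 to 0.06, with 8 positive and 10 negative. Gphn, the scaffold gephyrin that holds GABA-A and glycine receptors at synapses, was at 63.6 to 65.0 CPM in the controls and 62.3 to 63.4 CPM in the Rbfox2-/- retinas (log2 fold change -0.03, edgeR FDR = 0.720). Clptm1, which limits delivery of GABA-A receptors to the surface, was at 233 to 234 CPM in the controls and 237 to 242 CPM in the Rbfox2-/- retinas (log2 fold change 0.04, edgeR FDR = 0.609). Both have groups that do not overlap at differences of a few percent, and neither had an unadjusted edgeR p under 0.05. Nsf was the most abundant of the 18 at 201 FPKM and Shisa7 the least at 4.76 FPKM (log2 fold changes 0.0087 and -0.01).

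The 3 chloride cotransporters set the direction of GABA currents. Slc12a5 (KCC2), which extrudes chloride from neurons, was the most abundant at 210 FPKM (log2 fold change -0.02, edgeR FDR = 0.862). Slc12a2 (NKCC1), which loads chloride, was the least at 7.15 FPKM (log2 fold change -0.15, edgeR FDR = 0.463), with M893, M901 and M902 at 41.2 to 42.1 CPM, below every control, and M909 at 52.3 CPM.

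Cells that make GABA were read from their markers. The 10 markers of GABAergic amacrine cells were all detected, with a summed level of 940 to 1027 CPM in the controls and 920 to 1027 CPM in the Rbfox2-/- retinas. Of these, 6 were negative and 4 positive, with a median of -0.04, and the transcription factors Tfap2a, Tfap2b, Tfap2c and Pax6 ran from -0.08 to 0.01. Th (0.46, edgeR FDR = 0.182) and Npy (0.26, edgeR FDR = 0.244), which mark small subsets, were higher with an unadjusted p under 0.05. They were 2 of 10, against 6.42% of all genes, and none of the 10 was lower at that p. Of 5 horizontal cell markers 1 passed the FDR threshold: Calb1, a calcium-binding protein of horizontal, amacrine and ganglion cells, fell from 76.2 ± 1.84 to 57.9 ± 1.86 CPM (SD, n = 4 each; log2 fold change -0.40, edgeR FDR = 0.00341). Without M901 and M902 the log2 fold change was -0.43 and the edgeR FDR 0.0501, just above the threshold, and the mean of the other 2 Rbfox2-/- retinas was 56.5 CPM. The others were Lhx1 at 0.18, Onecut1 at -0.13, Onecut2 at -0.20 and Prox1 at -0.06. Of these, Lhx1 was higher with an unadjusted p under 0.05, the opposite direction to Calb1, 1 of 5 markers against 6.42% of all genes.

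The genes whose profile over the 8 libraries was nearest to a member were found by the root-mean-square difference of centered log2 CPM, among genes with at least 0.5 of its SD. For Gad1 they were Nuak1, Pdpk1 and Mesdc1 (0.0212 to 0.0244), and for Gad2 Tgfb3, 1500009L16Rik and Ttyh3 (0.0222 to 0.0250). For Slc32a1 they were Ube2n, C1ql2 and Ola1 (0.00683 to 0.0128), and for Slc6a11 Pak2, Slc30a4 and Daglb (0.0146 to 0.0169). For Gabrr1 they were Ddx18, Prmt5 and Tmem35 (0.0320 to 0.0327), and for Gabrr2 Etv1, Gm14204 and Recql (0.0302 to 0.0366). No member was among the nearest genes of another. Between members the difference was smallest for Gad2 and Slc32a1 (0.0338) and largest for Gad2 and Gabrr2 (0.139). With 8 libraries and 13570 to 16788 candidates per member, some genes come close to any profile, and depth and composition are shared by all genes of a library.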

How the data were processed

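Whole-retina RNA was poly(A)-selected and sequenced as read pairs by the authors, who aligned reads to mm10 with STAR and kept uniquely mapped ones. The deposited counts per gene came from HTSeq, with both RefSeq and Ensembl annotations named for this step, so which one was used is unclear. The submitters' processing notes name CASAVA 1.8.2 and edgeR. The deposited FPKM values, normalized by the authors for length and library total, served for levels between genes only. Columns with the authors' fold changes, p-values and normalized log values were not used.

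Each of the 17500 genes reached 5 counts in 4 or more mice. Counts were tested with edgeR 4.0.16 (R 4.3.3) by the quasi-likelihood test without covariates, after filterByExpr (16797 genes) and TMM scaling. FDR is the Benjamini-Hochberg value over all genes tested. The script was tested on simulated data. Ratios were tested by exact two-sided permutation over 70 groupings of the 8 mice. With 4 mice per group, the edgeR p-values set the group difference against the spread between animals, estimated partly from all genes. The permutation p-values count groupings of the mice. Neither tells genotype apart from other differences between the groups. No 2 libraries of a group agreed within sampling noise (chi-square 31.5 to 115 per gene). Marker levels used log2(CPM + 0.5).

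Other settings tried were the exact and likelihood ratio tests of edgeR, DESeq2 1.42.0, limma 3.58.1 (voom), other scalings and filters, 1 surrogate variable (sva 3.50.0), and fits without single mice or without M901 and M902. The members and lists were chosen with earlier results of these data known. Named were the 6 members, other list genes with p under 0.05, without overlap between groups, used in ratios, or highest or lowest in FPKM in their group, the 3 nearest profiles per member, markers with FDR under 0.05, in ratios or defining cells that express a member, Rbfox2 and Xist. Gabra2, its neighbors Gabrg1, Gabra4 and Gabrb1, Slc6a13, Slc6a12 and Best2 were named after their values were seen. Some genes that the naming rule covers, and 1 of the 5 ratios, are not reported here. Sequences came from GENCODE M21 transcripts.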

Additional observations from a re-analysis of the deposited data

Results flagged for a closer look

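In 4 of 40 groups of 4 mice, 1 mouse lay far from the other 3. The measure was Dixon's ratio of that mouse's gap to the group's range (critical value 0.829). Chance alone marks about 5% of groups, here 2. Some of the genes, Gabra2 among them, were picked for their values in these data, so 4 against 2 is not a fair comparison. In the Rbfox2-/- mice, Gabrr2 was at 75.8 CPM in M901 against 66.4 to 67.7 in the other 3 (ratio 0.865). Slc38a3 was at 642 CPM in M909 against 684 to 691 (0.858), and Prkca at 501 CPM in M909 against 444 to 452 (0.855). In the controls, Gabra2 was at 20.6 CPM in M894 against 9.19 to 10.8 (0.854).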

How the results depend on the processing

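No paired analysis was possible because the labels give each mouse its own name and no replicate number; the numbers 1 to 4 in each group only name the mice in accession order. Of the members, Gad1, Gad2, Slc6a11 and Gabrr2 kept their sign under 18 of 18 alternatives. Gabrr2 ranged from 0.08 to 0.18 in log2 fold change (FDR 0.199 to 0.932) and had an unadjusted p under 0.05 in 13 of the 18, not with 1 surrogate variable, without M901 and M902, or without M896, M898 or M901. Leaving out single mice gave 0.01 to 0.06 for Gad1, -0.08 to -0.04 for Gad2, -0.02 to 0.0082 for Slc32a1, 0.02 to 0.06 for Slc6a11, 0.04 to 0.14 for Gabrr1 and 0.11 to 0.18 for Gabrr2. Slc32a1 changed sign without M896 (0.0033) and without M909 (0.0082), and Gabrr1 with 1 surrogate variable (-0.012). Slc6a13 changed sign with 1 surrogate variable (0.33) and without M901 and M902 (0.14), and Gabra2 with 1 surrogate variable (-0.032), without M901 and M902 (-0.079) and without M901 (-0.13; range without single mice -0.13 to 0.57). The cause was not tested.

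Genes of the GABA list with an unadjusted p under 0.05 numbered 4, and 2 by the likelihood ratio test, the exact test, with 1 surrogate variable and without M901 and M902. Without single mice they numbered 1 to 9 (9 without M833, 7 without M909, 1 without M896 or M898). List genes with an FDR under 0.05 numbered 0, and 1 by DESeq2. All genes with an FDR under 0.05 numbered 11, and 465 by DESeq2, 164 by the likelihood ratio test, 154 by the exact test, 5 with 1 surrogate variable, 1 without M901 and M902, and 5 to 35 without single mice (35 without M833, 19 without M894, 6 without M898, and 5 without M896, M893, M901 or M909). No ratio given changed direction or passed the adjusted threshold under its 11 alternatives. With 4 mice per group, differences of a few percent are not resolved for most of these genes. The 6 members had 10019 or more counts in every library.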
